A study of Mus musculus with 4 samples.

Results

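The genes described here are the matrix metalloproteinases (Mmp), the ADAM proteases (Adam), the ADAMTS proteases (Adamts) and their tissue inhibitors (Timp), as measured in cultured mouse fibroblasts. Members were taken by gene name: every non-control probe whose name begins with Mmp, Adam or Adamts followed by a digit, together with Timp1 to Timp4. This gave 79 of the 29675 genes on the array, namely 23 Mmp, 33 Adam, 19 Adamts and 4 Timp genes. They stood on 119 probes, and a gene with several probes is given by the one with the highest mean signal. The cells were Swiss 3T3, an established mouse fibroblast line, either Lpar1+/+ (called WT) or Lpar1-/- (called KO). Lpar1 encodes a receptor for lysophosphatidic acid. The KO line is 1 clone grown from a single cell after CRISPR/Cas9 cutting next to exon 3, so loss of the gene and the history of that clone cannot be told apart. Arrays were made of each line at the start (0 h) and 24 h into coculture, in 100 ng/ml SCF, with mast cells grown from wild-type bone marrow. Each of the 4 groups has 1 single-colour array, hybridised with RNA pooled from 3 samples. There is thus no spread between replicates and no test for any value, and errors are standard errors (SE) that Feature Extraction's spot error implies.

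Metalloproteinases are zinc enzymes that cut proteins outside the cell. Collagenases open the fibrillar collagen helix, gelatinases take up the unfolded chains, and stromelysins cut proteoglycans and activate other pro-enzymes. Membrane-type enzymes do this at the cell surface. ADAMs mostly shed the outer parts of membrane proteins, among them growth factors and the membrane form of stem cell factor. ADAMTS enzymes are secreted, trim procollagen, and cleave the large proteoglycans aggrecan and versican. TIMPs block the catalytic site of most of them, so that in connective tissue, where fibroblasts are a main source of all 4 families, the balance of enzyme and inhibitor sets matrix turnover.

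Of the mouse Mmp genes, 10 lie side by side on chromosome 9, with their probes between positions 7282762 and 7697700 of mm9, a span of 0.415 Mb. Among them, Mmp13, Mmp3 and Mmp10 were higher in KO than in WT at 24 h, whereas their neighbours Mmp8 and Mmp27 were lower, and the promoters of these 5 genes are shown for that contrast. The sequences are RefSeq's, build GRCm38.p6, plus strand, 250 bases before to 50 after the annotated start. Capitals mark the AP-1 motif TGANTCA and the TATA motif TATAAA, searched on both strands. Positions are chr9:7272264-7272563 for Mmp13, chr9:7445572-7445871 for Mmp3, chr9:7502092-7502391 for Mmp10, chr9:7558179-7558478 for Mmp8 and chr9:7571146-7571445 for Mmp27.
Mmp13: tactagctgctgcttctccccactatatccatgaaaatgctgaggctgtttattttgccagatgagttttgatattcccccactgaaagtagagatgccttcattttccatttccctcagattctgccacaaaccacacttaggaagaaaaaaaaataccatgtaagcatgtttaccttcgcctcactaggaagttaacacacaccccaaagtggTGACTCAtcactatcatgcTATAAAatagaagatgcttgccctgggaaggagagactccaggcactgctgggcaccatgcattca
Mmp3: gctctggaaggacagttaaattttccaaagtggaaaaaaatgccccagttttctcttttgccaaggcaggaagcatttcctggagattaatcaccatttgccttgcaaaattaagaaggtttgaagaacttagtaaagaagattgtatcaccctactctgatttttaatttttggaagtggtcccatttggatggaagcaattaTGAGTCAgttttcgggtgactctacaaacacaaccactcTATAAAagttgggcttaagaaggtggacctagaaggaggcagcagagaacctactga
Mmp10: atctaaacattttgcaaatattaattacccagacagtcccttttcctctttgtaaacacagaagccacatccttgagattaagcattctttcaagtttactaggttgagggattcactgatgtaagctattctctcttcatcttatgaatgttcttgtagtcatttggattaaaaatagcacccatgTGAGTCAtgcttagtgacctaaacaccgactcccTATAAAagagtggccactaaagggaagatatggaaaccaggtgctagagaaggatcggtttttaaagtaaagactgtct
Mmp8: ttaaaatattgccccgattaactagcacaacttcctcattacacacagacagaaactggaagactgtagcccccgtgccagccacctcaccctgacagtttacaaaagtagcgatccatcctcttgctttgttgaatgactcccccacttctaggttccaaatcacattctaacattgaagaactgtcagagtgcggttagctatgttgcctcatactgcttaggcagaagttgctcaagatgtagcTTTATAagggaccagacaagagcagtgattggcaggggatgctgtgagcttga
Mmp27: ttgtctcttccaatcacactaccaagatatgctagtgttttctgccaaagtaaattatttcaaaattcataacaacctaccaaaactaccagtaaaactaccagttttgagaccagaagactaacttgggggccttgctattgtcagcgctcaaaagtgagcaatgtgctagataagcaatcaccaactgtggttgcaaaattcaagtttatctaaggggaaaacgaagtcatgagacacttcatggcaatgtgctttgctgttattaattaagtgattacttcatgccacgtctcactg

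The Mmp13, Mmp3 and Mmp10 windows each held 1 AP-1 motif, beginning 35, 46 and 63 bases before the annotated start, with a TATA motif after it. The Mmp8 window held a TATA motif only, on the minus strand, and the Mmp27 window held neither. AP-1 is the binding motif of the Fos and Jun factors, long known in the promoters of collagenases and stromelysins. It was found in 8 of the 10 chromosome 9 Mmp genes (80%), in 5 of the 39 other members with a promoter window (12.8%) and in 7.81% of all 32851 windows. TATA was found in 9 of the 10, in 5 of the 39 and in 13.6% of all windows. Elsewhere in the cluster AP-1 was also held by Mmp1b, which differed by less than 2-fold between lines at 24 h. Mmp12, Mmp20, Mmp1a and Mmp7 held it too. Of these only Mmp12 was well above background at 24 h, on the KO array, so no difference between lines was measured for them. Whether the motif goes with the contrast was not tested. These matches describe the letters of the windows, and binding was not measured.

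Signals are given as normalized log2 signal, where 0 is the array's own 75th percentile over non-control spots. Per-array values are always in the order WT 0 h, KO 0 h, WT 24 h, KO 24 h. Because probes differ in brightness, a level is compared only between arrays of the same probe. Well above background is Feature Extraction's own flag, and the dimmest probes so flagged lay at -7.36, -6.77, -6.16 and -6.69 on the 4 arrays. A difference is given where the probe was well above background on both arrays, and is called higher or lower from 2-fold, which is 1 on the log2 scale. Where only 1 array passed, an "at least" fold is given against the dim array's value, taken as the higher of its floor, the dimmest probe so flagged, and the dim probe's own signal. The SE of a difference was between 0.20 for bright probes and 0.44 for dim ones, and up to 0.54 for a difference of 2 differences.

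Of the 79 members, 38 were well above background on all 4 arrays (48.1%, against 57.7% of all genes), 21 on 1 to 3 arrays and 20 on none. No member was saturated. The share of all spots well above background was 72.7%, 71.5%, 67.3% and 62.1%, and that order held for members too, with 56, 51, 50 and 45 of them. By role, all 9 proteolytic ADAMs and all 4 TIMPs were on every array, as were both gelatinases. Only 5 of the 21 reproductive-tract ADAMs were, and 9 of these were on none.

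Fibroblast markers, as labelled, were present on all arrays, but the 0 h arrays carried mast cell transcripts in large amount. Of 21 fibroblast markers, 20, 20, 20 and 19 were well above background, with a summed signal of 221, 174, 331 and 279 times the 75th percentile. On the 0 h arrays this was below the mast cell sum that follows, although probes differ in brightness. Of 23 mast cell markers, 21, 22, 17 and 16 were, with a summed signal of 419, 581, 2.89 and 6.84 times the 75th percentile. Of 20 pan-leukocyte markers, 20, 20, 14 and 16 were, with summed signals of 88.6, 170, 9.60 and 7.13. The largest single part of the 24 h sums was Rab27b for mast cells (0.47 in WT and 2.08 in KO). For leukocytes it was Arhgdib (3.15 and 2.69), which changed little with time (-0.04 in WT and -0.58 in KO). Mcpt1, a mast cell protease gene, was below background on every array, and the macrophage and granulocyte markers summed to between 5.25 and 6.53. What the 0 h cultures held is not stated in the labels. Time differences therefore compare arrays with much and with little mast cell RNA, and fewer cells of a type and less RNA per cell cannot be told apart. The median fibroblast marker was 0.60 higher at 24 h in WT and 1.14 higher in KO. At 0 h the median KO minus WT difference was -0.81 for fibroblast markers and 1.00 for mast cell markers. The lines also differed in Thy1, a surface protein of many fibroblasts, which read -7.02, 3.73, -7.41 and 4.12, with the WT 24 h value not well above background. What part such line differences have in the results was not tested.

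Because of this, each result was also computed with arrays centred on 18 fibroblast markers instead of the 75th percentile, which moves every gene of a comparison by 1 constant. The constants were -0.34 for time in WT, -1.24 for time in KO, 1.35 for genotype at 0 h and 0.46 for genotype at 24 h. Each is the difference between the arrays' medians of these markers. It is not the median of the markers' own differences, which over all measured markers was 0.60, 1.14, -0.81 and -0.33. At 0 h, Mmp14 (-1.24) and Adamts2 (-1.13) lie below -0.81, so their turn depends on this choice. A difference of opposite sign and smaller than its constant turns, and relative to all genes nothing changes: their medians became -0.069, -1.01, 1.40 and 0.36. On that scale the members split into 7 higher and 5 lower at 24 h in WT and 2 higher and 19 lower in KO, where 9.08% and 8.76% of all genes were higher and lower in WT and 0.353% and 50.7% in KO. Between lines, 35 were higher and 3 lower in KO at 0 h (Adamts1, Adamts9 and Adam23), and 9 higher and 5 lower at 24 h, against 79.6% and 0.714% of all genes at 0 h and 14.2% and 6.47% at 24 h. All values that follow are on the 75th percentile scale unless fibroblast marker centring is named.

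**Figure D1:**
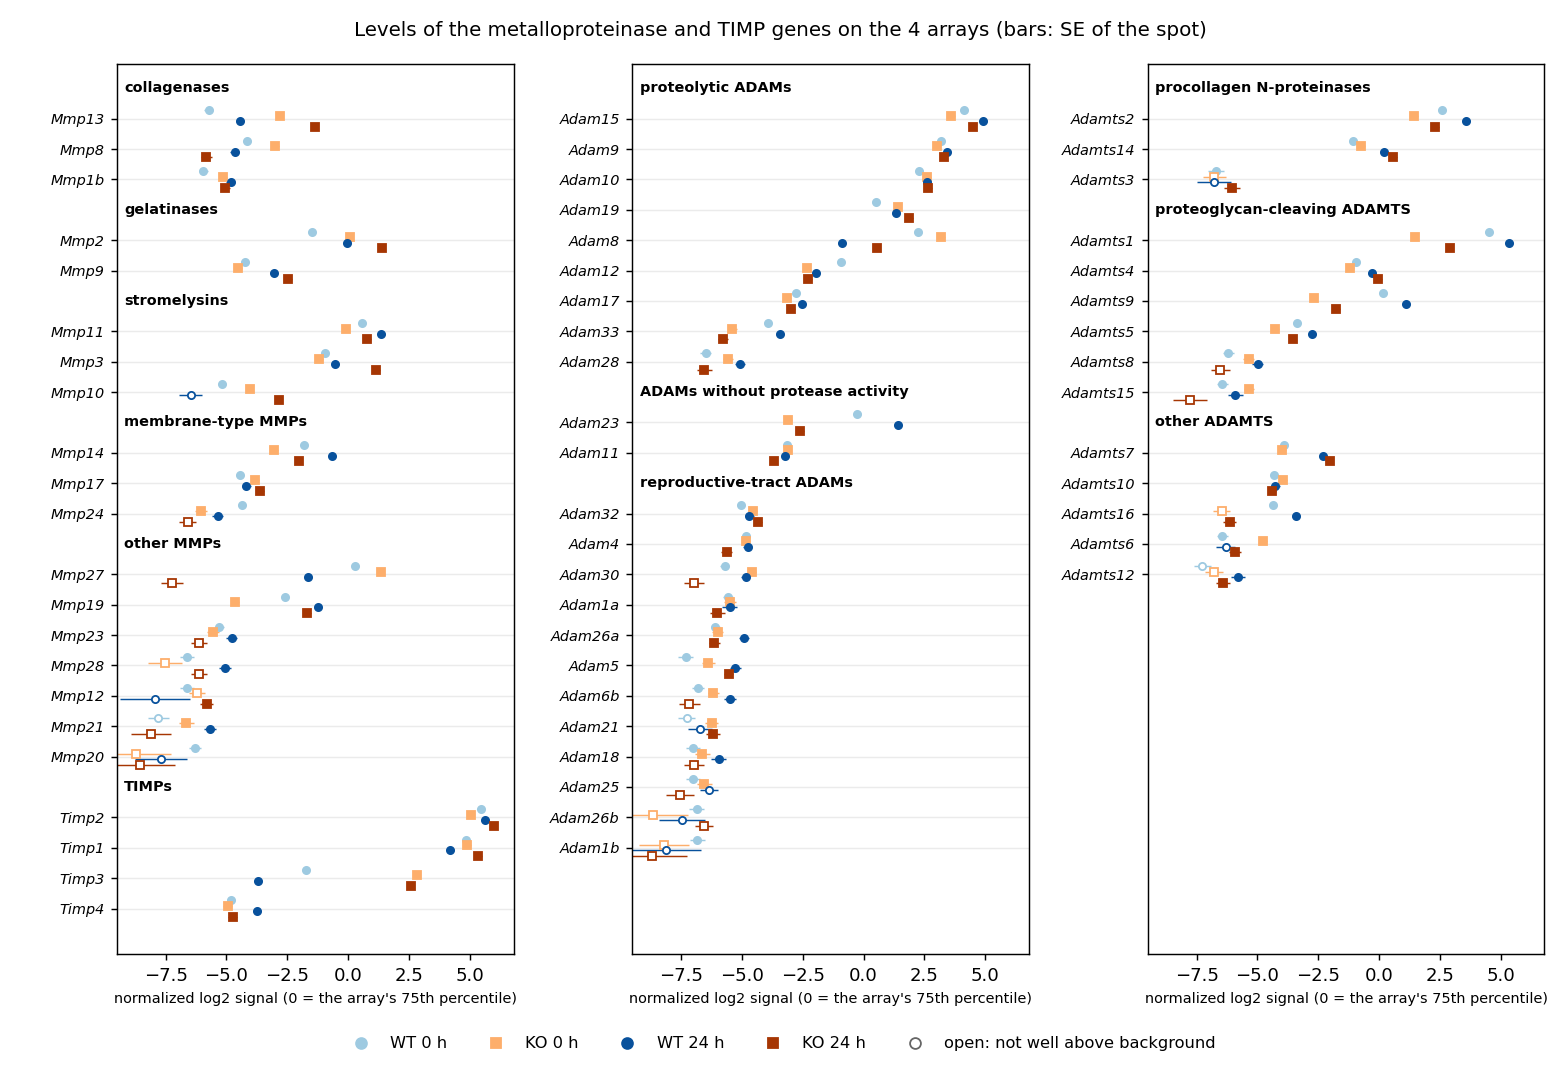
Normalized log2 signal of the 59 members well above background on at least 1 array, grouped by role, on the x axis. Circles are WT, squares KO, pale symbols 0 h, dark symbols 24 h, open symbols values not well above background, and bars the SE of the spot. Timp3, Adamts1, Adamts9 and Adam23 separate the lines at both times, and Adam8 separates the times.

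Between the lines at 0 h, 49 members could be compared. In KO, 9 were at least 2-fold higher and 9 at least 2-fold lower, that is 18.4% each way, against 9.34% higher and 4.07% lower among all 20317 genes compared. Their median difference was 0.084, and that of all genes 0.056. Among genes with a mean level at or above -4, 4 of 26 members were higher and 7 lower, against 7.37% and 4.58% of all such genes. At 24 h, 40 members were compared, with 6 higher and 10 lower in KO, against 5.76% and 12.3% of all genes. Their median was -0.37, and that of all genes -0.093. At or above -4, 6 of 27 members were higher and 5 lower, against 6.31% and 6.46%. One gene more at 24 h, Mmp10, was at least 2-fold higher in KO by its bound, and 8 were at least 2-fold lower, against 8.78% and 56.6% of the genes well above background on 1 of those arrays. At 0 h there was 1 such bound each way, Adam21 higher and Adamts16 lower, against 27% and 8.19%. Bounds come only from members on 1 array of a pair. At 24 h 50 members were well above background in WT, 45 in KO and 40 in both, and at 0 h 56, 51 and 49. No departure of the bound counts from the shares of all genes is claimed.

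The 2 genotype comparisons share no array. Of the 38 members measured on all 4 arrays, 3 were at least 2-fold higher in KO at both times (Timp3, Mmp13 and Mmp2) and 6 lower at both (Adamts1, Adamts9, Adam23, Adam33, Adamts2 and Mmp14; with fibroblast marker centring at 0 h the last pair turned and Adam33 was under 2-fold). On its other probes Adam33 was also under 2-fold at 0 h. The sole member 2-fold apart in opposite directions was Mmp8. Among all 17116 genes so measured, 433 were higher at both times, 404 lower at both and 218 opposite. Across the 38 members the 2 differences had a correlation (Pearson) of 0.83 and a rank correlation (Spearman) of 0.57, and across all genes 0.43 and 0.20. The points of each comparison share its 2 arrays and the same probes.

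**Figure D2:**
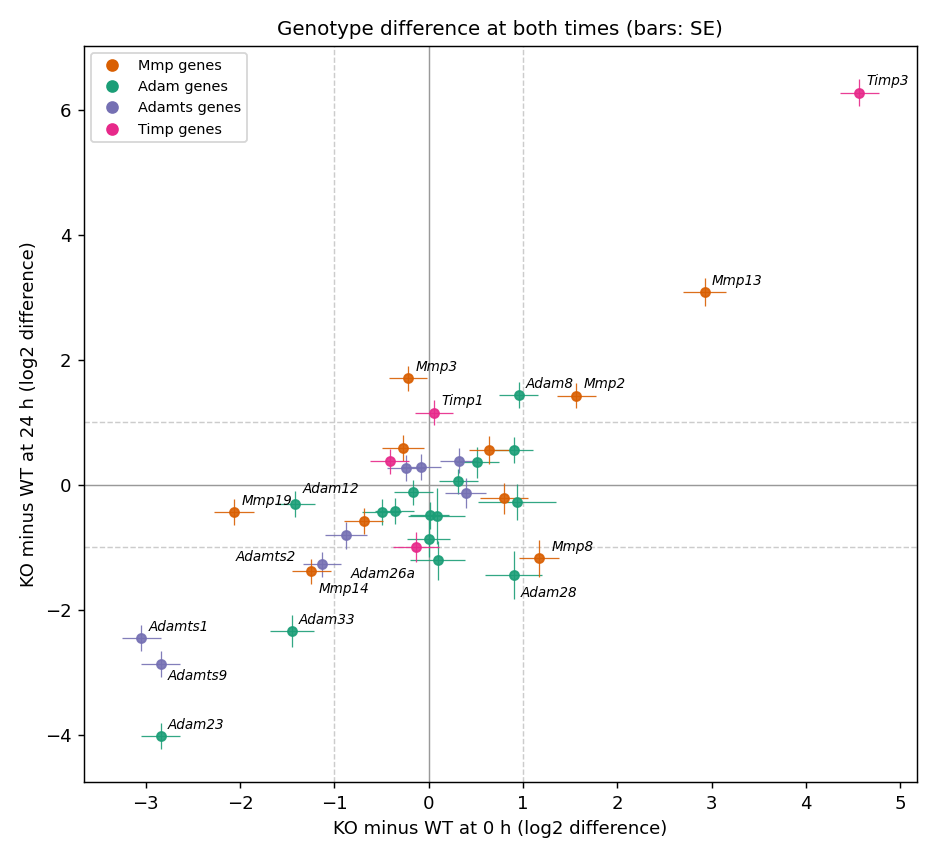
KO minus WT log2 difference at 0 h (x axis) and 24 h (y axis) for the 38 members measured on all 4 arrays, with SE bars and dashed lines at 2-fold. Timp3 and Mmp13 lie far up on the right, Adamts1, Adamts9 and Adam23 low on the left, and Mmp8 is higher in KO at 0 h and lower at 24 h.

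Timp3 differed most. It encodes the TIMP that binds to the matrix and also inhibits ADAM17 and the aggrecanases. Its levels were -1.74, 2.83, -3.70 and 2.57, so both KO arrays lay above both WT arrays. KO exceeded WT 23.7-fold at 0 h (log2 4.57 ± 0.20) and 77.3-fold at 24 h (6.27 ± 0.21). Within lines it was 3.90-fold lower at 24 h than at 0 h in WT (-1.96 ± 0.21) and little different in KO (-0.26 ± 0.20).

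Timp1 and Timp2 were among the brightest members on every array and differed less. Timp1, a secreted inhibitor, read 4.84, 4.90, 4.20 and 5.36. The lines lay together at 0 h (0.06) and 2.23-fold apart at 24 h, with KO the higher (1.15 ± 0.20). Timp2, which also helps MMP14 to activate pro-MMP2, read 5.46, 5.05, 5.62 and 5.99, all within 2-fold between lines. At 24 h it was 0.16 higher in WT and 0.94 higher in KO, just under 2-fold, and its other probe gave 0.33 and 1.34. On that other probe the KO change minus the WT change was 1.01. With fibroblast marker centring the 0.94 turned. Timp4 was dim, at -4.82, -4.95, -3.75 and -4.75, and was 2.09-fold higher at 24 h than at 0 h in WT (1.06 ± 0.23). Between lines at 24 h it stood just under 2-fold (-0.996 ± 0.24).

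Among the collagenases, Mmp13, collagenase 3, read -5.74, -2.81, -4.45 and -1.36. It was higher in KO 7.61-fold at 0 h (2.93 ± 0.23) and 8.49-fold at 24 h (3.09 ± 0.22). Both lines were also higher at 24 h, WT by 1.29 ± 0.24 and KO by 1.45 ± 0.21, so that all 4 arrays were ordered by line first and time second. Mmp8, known as the neutrophil collagenase, read -4.16, -2.99, -4.65 and -5.83. In KO it was 7.19-fold lower at 24 h than at 0 h (-2.85 ± 0.27), and in WT the difference was -0.49 ± 0.23. The line with the higher signal thus changed, from KO at 0 h (1.17 ± 0.21) to WT at 24 h (-1.18 ± 0.29). Mmp1b, a mouse relative of human MMP1, read -5.95, -5.15, -4.82 and -5.04, 2.18-fold higher at 24 h in WT, and Mmp1a was on no array.

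Both gelatinases were higher at 24 h in both lines. Mmp2, gelatinase A, read -1.49, 0.07, -0.04 and 1.38. Each step was of like size: KO over WT by 1.57 ± 0.20 at 0 h and 1.42 ± 0.20 at 24 h, and 24 h over 0 h by 1.45 ± 0.20 in WT and 1.31 ± 0.20 in KO. Mmp9, gelatinase B, has 10 spots of its probe on each array, with means of -4.25, -4.52, -3.06 and -2.47 and SDs of 0.11, 0.19, 0.12 and 0.071. The spots at 24 h lay above all spots at 0 h in both lines. It was 2.28-fold higher at 24 h in WT and 4.15-fold higher in KO, and differed less than 2-fold between lines. With fibroblast marker centring its time differences also fell under 2-fold.

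Of the stromelysins, Mmp3 read -0.97, -1.18, -0.55 and 1.15, so the KO 24 h array stood apart from the other 3. Mmp3, stromelysin 1, activates several pro-MMPs. It was 5.03-fold higher at 24 h than at 0 h in KO (2.33 ± 0.20) and 0.42 ± 0.20 higher in WT. Mmp10, stromelysin 2, read -5.19, -4.05, -6.47 and -2.85, with the WT 24 h value not well above background. KO exceeded WT 2.20-fold at 0 h and at least 9.96-fold at 24 h, and KO was 2.30-fold higher at 24 h than at 0 h (-0.034 with fibroblast marker centring). Mmp11, stromelysin 3, which furin activates inside the cell, read 0.58, -0.10, 1.36 and 0.78 and stayed within 2-fold in every comparison on this probe. Its other probe gave 1.02 for time in KO, past 2-fold, and was under 2-fold in the other comparisons.

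Among the membrane-type enzymes only Mmp14 and Mmp17 were on all arrays. Mmp14, the cell-surface collagenase MT1-MMP and activator of pro-MMP2, read -1.80, -3.04, -0.65 and -2.03. It was lower in KO at 0 h (-1.24 ± 0.21) and at 24 h (-1.39 ± 0.20), opposite in direction to its substrate Mmp2, and with fibroblast marker centring it turned to 0.10 at 0 h. Mmp17 read -4.46, -3.82, -4.18 and -3.62, all within 2-fold. Mmp24 read -4.38, -6.04, -5.36 and -6.59 and was lower in KO, 3.16-fold at 0 h and at least 2.35-fold at 24 h. Mmp15, Mmp16 and Mmp25 were on no array.

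In the rest of the MMPs, Mmp19, which cleaves basement membrane proteins, read -2.60, -4.66, -1.25 and -1.69. The KO 0 h array was low, so KO was 4.18-fold below WT at 0 h (-2.06 ± 0.22) and under 2-fold below it at 24 h (-0.44 ± 0.21). From 0 h to 24 h it was 2.55-fold higher in WT and 7.84-fold higher in KO. Mmp27 read 0.29, 1.33, -1.64 and -7.25, the last not well above background. It was 3.81-fold lower at 24 h in WT and at least 260-fold lower in KO, and at 24 h KO lay at least 33.2-fold below WT. Another, dimmer Mmp27 probe gave 0.94 in WT, the opposite direction, -1.997 in KO and -1.94 between lines at 24 h. The remaining ones were dim. Mmp28 (-6.63, -7.52, -5.06 and -6.13) was 2.96-fold higher at 24 h in WT, and Mmp21 (-7.80, -6.64, -5.67 and -8.12) at least 3.21-fold higher. Mmp23 (-5.30, -5.55, -4.79 and -6.14) was at least 2.55-fold lower in KO at 24 h. Mmp12, the macrophage elastase, passed on WT 0 h and KO 24 h only (-6.61 and -5.82), Mmp20 on WT 0 h only, and Mmp7 on none.

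**Figure D3:**
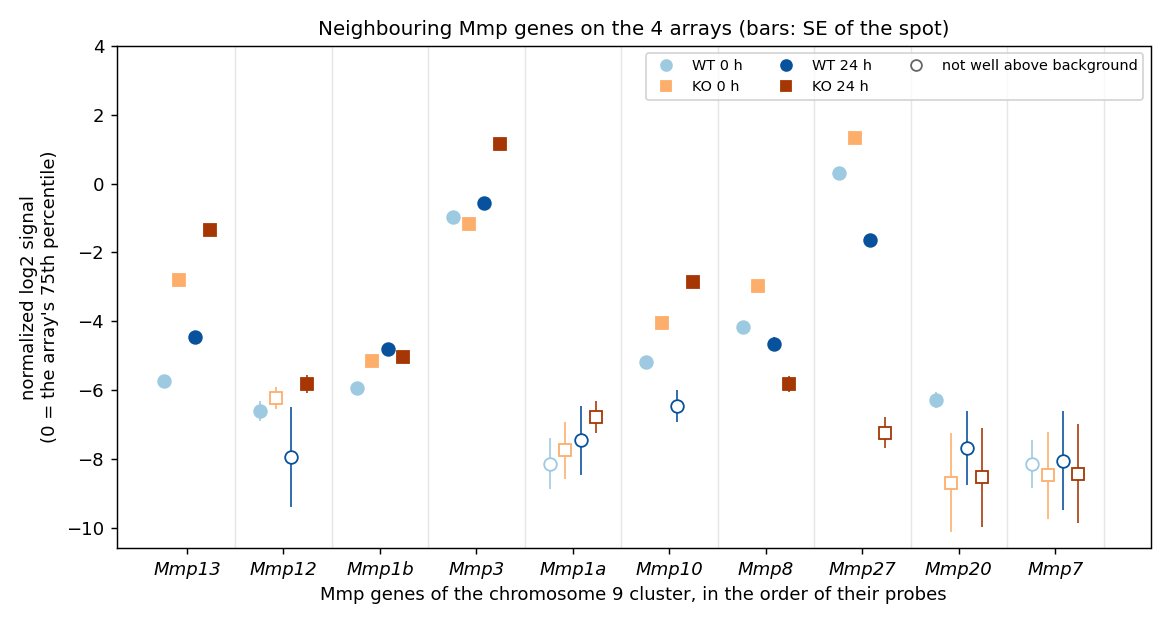
Normalized log2 signal (y axis) of the 10 neighbouring Mmp genes of chromosome 9 on each array, in the order of their probes, with SE bars and open symbols for values not well above background. KO 24 h is the highest array for Mmp13, Mmp3 and Mmp10 and the lowest for Mmp8 and Mmp27.

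Along the chromosome 9 cluster, neighbours did not move as 1 block. Mmp13, Mmp3 and Mmp10 were at their highest on the KO 24 h array, and Mmp8 and Mmp27, next to Mmp10, were at their lowest there. Mmp8 and Mmp27 were at their highest on the KO 0 h array, where the summed mast cell and leukocyte signals were also highest. Mmp12, Mmp1a, Mmp20 and Mmp7 were on 2, 0, 1 and 0 arrays.

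Adamts1 and Adamts9, secreted ADAMTS proteases, were the members lowest in KO relative to WT at 0 h. Adamts1 cleaves aggrecan and versican. It read 4.52, 1.47, 5.36 and 2.91, and was 8.27-fold lower in KO at 0 h (-3.05 ± 0.20) and 5.46-fold lower at 24 h (-2.45 ± 0.20). With time it gained 0.84 ± 0.20 in WT and 1.44 ± 0.20 in the KO line. Adamts9, also a versican protease, read 0.17, -2.68, 1.12 and -1.75. KO was 7.18-fold lower at 0 h (-2.84 ± 0.20) and 7.31-fold lower at 24 h (-2.87 ± 0.20). The other Adamts9 probe gave -2.53 and -1.90.

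The aggrecanases Adamts4 and Adamts5 differed less between lines. Adamts4 read -0.93, -1.17, -0.29 and -0.03, and was 2.21-fold higher at 24 h in KO, a difference that turned to -0.095 with fibroblast marker centring. A dimmer Adamts4 probe gave 0.25 for time in KO and -1.03 for KO minus WT at 24 h. Adamts5 read -3.39, -4.27, -2.74 and -3.55, below 2-fold in every comparison. Adamts8 (-6.19, -5.36, -4.99 and -6.52) and Adamts15 (-6.44, -5.34, -5.90 and -7.76) were dim and not well above background on the KO 24 h array, at least 2.24-fold and 2.55-fold lower there than on KO 0 h. Adamts8 was 2.30-fold higher at 24 h in WT, and Adamts15 was 2.14-fold higher in KO at 0 h. Adamts20 was on no array.

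Of the procollagen N-proteinases, which remove the amino-terminal propeptide of fibrillar procollagens, Adamts2 read 2.59, 1.45, 3.58 and 2.30. It was 2.19-fold lower in KO at 0 h (-1.13 ± 0.20) and 2.42-fold lower at 24 h (-1.28 ± 0.20), and its other probe gave -1.08 and -1.35. With fibroblast marker centring the 0 h difference turned to 0.22. Adamts14 instead separated the times, at -1.05, -0.73, 0.20 and 0.59. It was 2.39-fold higher at 24 h in WT and 2.49-fold higher in KO, although a dimmer probe gave -1.06 in KO. Adamts3 was near the floor, between -6.78 and -6.05.

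Among the other ADAMTS genes, Adamts7, which can cleave the cartilage protein COMP, read -3.89, -3.97, -2.30 and -2.02. At 24 h it was 3.01-fold higher in WT (1.59 ± 0.21) and 3.86-fold higher in KO (1.95 ± 0.21), with KO minus WT at -0.08 and 0.28 at the 2 times. Adamts16 read -4.36, -6.47, -3.41 and -6.14. KO was at least 4.34-fold lower at 0 h and 6.66-fold lower at 24 h (-2.74 ± 0.32). Adamts6 read -6.45, -4.77, -6.31 and -5.92, highest on KO 0 h, 3.21-fold above WT 0 h. Adamts12 read -7.27, -6.79, -5.80 and -6.41 and was at least 2.78-fold higher at 24 h in WT. Adamts10 stayed between -4.39 and -3.93, and Adamts13, Adamts17, Adamts18 and Adamts19 were on no array.

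Proteolytic ADAMs, the sheddases, were mostly even across the 4 arrays. Adam10, the main sheddase of Notch receptors, read 2.29, 2.61, 2.61 and 2.67. Adam17, which releases TNF and several EGF receptor ligands, read -2.77, -3.13, -2.54 and -2.97. No comparison of either gene reached 2-fold. The same held for Adam9 (3.18, 3.02, 3.42 and 3.29), Adam15 (4.11, 3.61, 4.93 and 4.49) and Adam19 (0.51, 1.41, 1.33 and 1.89). A much dimmer Adam19 probe gave -1.07 for KO change minus WT change.

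Adam8, a sheddase known from leukocytes, stood apart by time. It read 2.24, 3.19, -0.90 and 0.54, so both 0 h arrays lay above both 24 h arrays. It was 8.82-fold lower at 24 h in WT (-3.14 ± 0.20) and 6.31-fold lower in KO (-2.66 ± 0.20). The median mast cell marker difference was -6.93 in WT and -7.60 in KO, and the part of mast cell RNA in the difference of Adam8 was not tested. At 24 h KO exceeded WT 2.71-fold (1.44 ± 0.20), where 3 of 15 measured mast cell markers were at least 2-fold higher in KO and 1 lower (median 0.23). The summed signal of the mast cell markers was 6.84 in KO and 2.89 in WT, with Rab27b, at 2.08 and 0.47, the largest single part of both sums.

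Adam33 and Adam12 were lower in KO at 0 h. Adam33 read -3.94, -5.39, -3.44 and -5.79, lower in KO 2.73-fold at 0 h (-1.45 ± 0.24) and 5.07-fold at 24 h (-2.34 ± 0.26). Its other probes gave -0.69 and -0.35 at 0 h, both under 2-fold, and were not well above background on KO 24 h. Adam12, a protease of growing muscle and connective tissue, read -0.93, -2.34, -1.97 and -2.28, highest on WT 0 h, with KO 2.66-fold lower at 0 h. Its 4 probes ran from -1.41 to 0.14 at 0 h, so the direction depended on the probe. Adam28 was dim, at -6.48, -5.58, -5.09 and -6.54, and was 2.63-fold higher at 24 h in WT and under 2-fold lower in KO (-0.96 ± 0.38).

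Of the ADAMs without protease activity, Adam23 was as far below WT in the KO line as Adamts1 and Adamts9. Adam23 lacks the catalytic motif and binds integrins and secreted LGI proteins, mostly in nerve tissue. It read -0.26, -3.10, 1.42 and -2.60. KO was 7.16-fold lower at 0 h (-2.84 ± 0.21) and 16.2-fold lower at 24 h (-4.02 ± 0.20), and the next brightest probe gave -2.97 at 24 h. WT was 3.19-fold higher at 24 h than at 0 h (1.67 ± 0.20), and KO 0.49 ± 0.21 higher. Adam11 stayed between -3.70 and -3.12, and Adam22 was on no array.

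The reproductive-tract ADAMs, known from sperm and testis, had -4.35 as their highest value. Adam5 read -7.32, -6.38, -5.27 and -5.55, and was 4.14-fold higher at 24 h in WT (2.05 ± 0.38). Adam26a (-6.09, -5.99, -4.92 and -6.13), Adam6b (-6.81, -6.17, -5.49 and -7.17) and Adam18 (-6.99, -6.63, -5.96 and -6.95) were highest on WT 24 h too, 2.25-fold, 2.49-fold and 2.05-fold above WT 0 h. On KO 24 h, Adam26a was 2.31-fold and Adam6b at least 2.29-fold below WT. Adam30 read -5.71, -4.57, -4.84 and -6.96, 2.21-fold higher in KO at 0 h, but not well above background on KO 24 h and at least 3.60-fold below WT there. Adam21 (-7.27, -6.25, -6.72 and -6.19) passed on the KO arrays only, at least 2.03-fold above WT at 0 h. The 1 dim spike-in control gave 1.25 for WT 24 h minus WT 0 h and -0.80 for KO 24 h minus WT 24 h, against medians of 0.25 and 0.54 for the 8 bright ones. Whether the dim end of the scale shifted on these arrays was not tested.

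Between times in WT, 48 members were compared, with 17 at least 2-fold higher at 24 h and 4 lower (Adam8, Timp3, Mmp27 and Adam12), against 15.8% and 5.57% of all genes. Of the 17, 10 had a mean level below -4. At or above -4, 7 of 28 members were higher and 4 lower, against 4.69% and 6.35%. In KO, 41 were compared, with 11 higher and 3 lower (Mmp8, Adam8 and Adamts6), against 9.48% and 10.9%. All 11 lay at or above -4, where 28 members were compared and 1 was lower, against 10.7% and 9.77%. By bounds, Adamts12 and Mmp21 were higher in WT and none lower, against 26.1% and 19% of the genes well above background on 1 of those arrays. In KO none was higher by a bound and Adam30, Adamts8, Adamts15 and Mmp27 were lower, against 2.88% and 33.8%. In WT 56 members were well above background at 0 h, 50 at 24 h and 48 at both, and in KO 51, 45 and 41. The median member was 0.80 higher in WT and 0.46 higher in KO, against 0.28 and 0.23 for all genes.

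The 2 time comparisons share no array. Of the 38 members on all 4 arrays, 7 were at least 2-fold higher at 24 h in both lines (Mmp2, Mmp9, Mmp13, Mmp14, Mmp19, Adamts7 and Adamts14, of which only Mmp19 stayed at 2-fold in KO under fibroblast marker centring, where Mmp14 was -0.23 and the other 5 lay between 0.071 and 0.81), 1 lower in both (Adam8) and 0 opposite. Among all 17116 genes, 354 were higher in both, 757 lower in both and 253 opposite. The 2 differences had a Pearson correlation of 0.61 and a rank correlation of 0.59 across members, and 0.67 and 0.33 across all genes. In the same arrays 7 of 19 measured fibroblast markers were at least 2-fold higher at 24 h in WT and 11 of 19 in KO, against 15.8% and 9.48% of all genes.

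**Figure D4:**
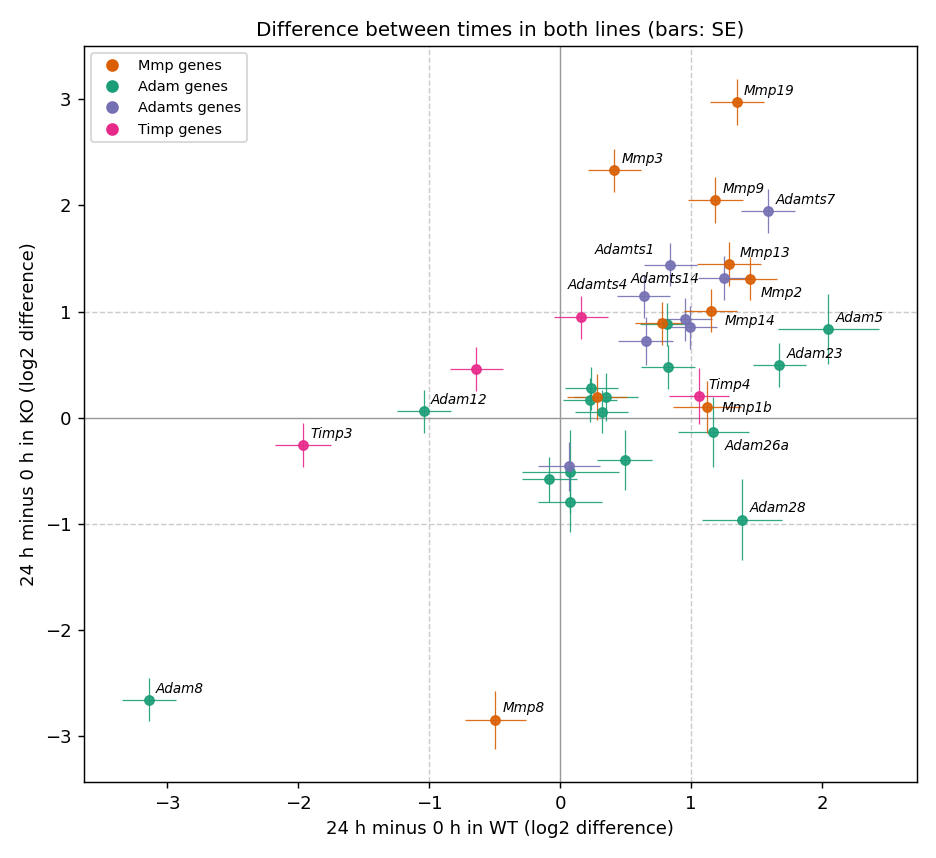
Log2 difference between 24 h and 0 h in WT (x axis) and KO (y axis) for the 38 members measured on all 4 arrays, with SE bars and dashed lines at 2-fold. Adam8 lies low on the left, 7 members lie above 2-fold on both axes, and Mmp3, Mmp8 and Timp3 were 2-fold apart in 1 line only.

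The difference of the differences, KO change minus WT change, could be given for the 38 members, with 5 at least 2-fold higher and 6 lower, against 4.72% and 13.3% of all genes. Above were Mmp3 (1.92 ± 0.29), Timp3 (1.70 ± 0.29), Mmp19 (1.62 ± 0.30), Timp1 (1.098 ± 0.29) and Adam12 (2.14-fold). The other Adam12 probes gave the opposite direction (-0.24, -0.35 and -0.79). Below were Adam28, Mmp8, Adam26a, Adam5, Adam23 and Mmp1b, of which only Adam23 (-1.18 ± 0.29) had a mean level at or above -4. Of all the members above and below, only Mmp3 kept 2-fold in the same direction under every alternative processing that gave a value. At or above -4, 5 of 26 members were higher and 1 lower, against 5.06% and 6.05%.

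Genes that act with these enzymes were taken from 4 lists. To set beside their counts, 9.34% of all genes measured were higher and 4.07% lower in KO at 0 h (median 0.056). At 24 h these shares were 5.76% and 12.3% (median -0.093). Of 26 activators and other inhibitors, 22 were measured between lines at 0 h, with 2 at least 2-fold higher in KO and 5 lower (median -0.21), and 20 at 24 h, with 5 higher and 3 lower (median -0.11). Pcolce2, an enhancer of procollagen C-proteinase, was the lowest of those measured on both arrays (-5.72 ± 0.21 and -5.21 ± 0.21 at 0 h and 24 h). Plau, the urokinase that feeds plasmin to pro-MMPs, was the highest of those measured on both arrays (1.91 ± 0.20 and 3.12 ± 0.22). By bounds, 2 more were higher in KO at 0 h, and 1 higher and 3 lower at 24 h. Among these, Pcsk6, a proprotein convertase, was below background in WT and at least 5.30 and 3.48 higher in KO on the log2 scale. Fap, a surface protease of activated fibroblasts, was below background on KO 24 h, where its bound against WT was -5.99. Furin, which activates membrane-type MMPs and ADAMs, was lower at 24 h than at 0 h in both lines (-1.96 ± 0.20 in WT and -1.21 ± 0.20 in KO). Of the 9 partners of ADAM17 and ADAM10, 8 were measured. In KO at 24 h Tspan5, a tetraspanin that escorts ADAM10, was 1.25 ± 0.20 higher, and Rhbdf2, the iRhom that carries ADAM17 to the surface, was lower (-1.42 ± 0.20). With fibroblast marker centring the Rhbdf2 difference fell just under 2-fold.

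Of 24 cell surface proteins that ADAMs shed, 20 were measured between lines at 0 h, with 0 higher in KO and 5 lower (median -0.36), and 18 at 24 h, with 4 higher and 3 lower (median -0.31). Kitl, the membrane form of stem cell factor on which mast cells depend, read -1.07, -3.13, -0.62 and -1.86, lower in KO at both times. With fibroblast marker centring both Kitl differences fell under 2-fold. Il6ra, the interleukin 6 receptor, was lower in KO at 0 h (-2.14 ± 0.20) and less than 2-fold apart at 24 h (-0.33 ± 0.20). Its 0 h difference also fell under 2-fold with that centring. By bounds, Areg was higher and Tgfa lower in KO at 0 h, and Areg higher at 24 h. The ligands of the EGF receptor family went both ways at 24 h. Hbegf (2.40 ± 0.20), Ereg (2.01 ± 0.20) and Areg (at least 3.06) were higher in KO, Tgfa was lower (-2.02 ± 0.33), and Nrg1 (-0.73) and Egf (-0.29) were less than 2-fold apart. Of 18 ADAMTS-like genes and ADAMTS substrates, 16 were measured at 0 h, with 3 higher and 2 lower in KO (median 0.23), and 12 at 24 h, with 2 higher and 0 lower (median 0.023) and Adamtsl2 lower by its bound of -1.52. Vcan, which encodes versican, the substrate of Adamts1 and Adamts9, read 3.27, 2.20, 4.00 and 3.63, lower in KO at 0 h (-1.07 ± 0.20) and less than 2-fold apart at 24 h (-0.37 ± 0.20). With fibroblast marker centring, whose constant at 0 h was 1.35, the 0 h difference of Vcan turned. Dcn, which encodes decorin, was 1.86 ± 0.20 higher at 24 h in WT and 3.33 ± 0.20 higher in KO.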

How the data were processed

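The 4 arrays (Agilent design, Cy3, 1 slide) hold 43020 non-control spots each, 1 array per group. Per the file headers, the deposited intensity is Feature Extraction 12.1.1.1's processed signal, with background removed and spatial trends corrected within each array and no scaling between arrays. The authors' deposited value table is a ratio, that signal over the array's 75th percentile, and was used only as an alternative. Each intensity as deposited was taken to log2 and the array's 75th percentile was subtracted; control spots and outlier-flagged spots were left out, and spots of a probe averaged. Probe positions are mm9, per the file headers; 105 of 119 member probes matched RefSeq by accession, with no symbol changed. A single probe under another name, which RefSeq lists within the ADAM family, was not taken by the rule.

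With 1 array per group, no test was run. Every difference was computed over all genes. Members well above background on at least 1 array could be named, with values per array for those 2-fold apart, all Timp genes and the brightest 10. Values of Mmp17, Adamts5 and Adam17 were added outside this rule after they were seen, and members on no array are named only as such. The members, roles and lists were chosen with earlier results of these data known. The 4 pathway lists had up to 3 genes named at each end. The computation was tested on simulated data. Alternatives were quantile normalization and normexp (offset 50) with limma 3.58.1 in R 4.3.3, the authors' table, no filter, a stricter filter (all 4 arrays and brighter than the median probe), the mean of all probes, and centring on fibroblast markers. Python 3.11.15 and pandas 2.3.3 were used. The number of arrays limits the precision, and the SE covers neither culture nor labelling.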

Additional observations from a re-analysis of the deposited data

Results flagged for a closer look

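Adam28, Mmp8 and Timp1 are given because their arrays moved in opposite directions in the 2 groups set side by side, and in none of these was the difference tested, since each group has 1 array. Adam28 was 1.39 ± 0.31 higher at 24 h in WT and lower in KO (-0.96 ± 0.38), so that the KO change minus the WT change was -2.35 ± 0.49. It was dim, and the value was -1.06 with quantile normalization and -0.30 with normexp. Mmp8 was higher in KO at 0 h (1.17 ± 0.21) and lower at 24 h (-1.18 ± 0.29), a difference of -2.35 ± 0.36; with normexp it was -0.80. Mast cell and leukocyte marker signals were highest on the KO 0 h array, and their part in it was not tested. Timp1 was lower at 24 h in WT (-0.64 ± 0.20) and 0.46 ± 0.20 higher in KO, a difference of 1.098 ± 0.29. Its probe was bright, and the value was 1.00 with quantile normalization and with normexp, and 0.21 with fibroblast marker centring.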

How the results depend on the processing

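No paired analysis was possible because each group has 1 array. Of 80 member differences of at least 2-fold, 27 kept that size and direction under every alternative that gave a value, among them both genotype differences of Timp3, Mmp13, Mmp2, Adamts1, Adamts9 and Adam23. By setting, 46 of 80 stayed 2-fold with fibroblast marker centring, 44 of 80 with normexp, 61 of 80 with quantile normalization and 57 of 64 with the mean of all probes. The filters only decide which genes get a value, and the authors' table holds the same ratio. The 53 of 53 with the stricter filter and the 80 of 80 with no filter or that table were therefore fixed in advance. The cause of the other moves was not tested.

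With fibroblast marker centring, members higher and lower were 7 and 5 for time in WT (median 0.45), 2 and 19 for time in KO (-0.78), 35 and 3 for genotype at 0 h (1.43), 9 and 5 at 24 h (0.088), and 1 and 18 for the difference of differences (-0.97). For that last comparison, 0.643% and 41.3% of all genes were higher and lower. The shares for the others are given above. With no filter, which adds dim probes, 32 and 8 differed by time in WT, 14 were lower in KO (0.090), 14 were higher in KO than WT at 0 h (0.36), 28 lower at 24 h, and the difference of differences gave 9 and 32 (-0.49); of all genes, 29.7% and 7.28%, 19.8%, 13.0%, 25.7%, and 5.03% and 36.5% did so. With normexp, 6 were higher by time in WT (0.24), 5 higher in KO at 0 h, 5 lower at 24 h (-0.019), and the difference of differences gave 2 and 1. Of all genes, 2.42%, 3.96%, 3.89%, and 2.74% and 3.87% did so. Quantile normalization gave -0.036 at 24 h and 2 lower differences of differences, against 8.81% of all genes. With the stricter filter, which tests fewer genes, 8 were higher by time in WT, the KO time median was 0.85, 4 were higher in KO at 0 h (-0.22), 6 lower at 24 h (-0.12) and 2 differences of differences lower. For all genes the shares were 4.89%, 4.87%, 7.31% and 6.99%, and the KO time median was 0.31. With the mean of all probes, 2 were lower by time in WT (0.56), 5 lower in KO at 0 h, 5 at 24 h and 3 differences of differences. 

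Directions turned for Adam12 with the mean of probes (0.049 by time in WT, -0.070 for the difference of differences) and for Adam5's difference of differences with quantile normalization (0.044) and normexp (0.055). With fibroblast marker centring they turned for time in KO in Adamts4 (-0.095), Mmp10 (-0.034) and Mmp14 (-0.23), and for genotype at 0 h in Adamts2 (0.22) and Mmp14 (0.10). Members near background are limited by signal: 21 of 79 passed on 1 to 3 arrays only.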
